A study of Mus musculus with 2 samples.

Results

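The 10 melanosome genes Tyr, Tyrp1, Dct, Pmel, Mlana, Slc45a2, Oca2, Slc24a5, Gpr143 and Trpm1 were compared between the pigment cells of the eye cup, the retinal pigment epithelium (RPE) and the melanocytes. They were taken by gene symbol from the 31053 genes counted, and all 10 were present. Each of the 2 single-cell libraries came from a pool of 3 samples of eye cups of e15.5 mouse embryos, from which cornea, lens and optic nerve had been dissected away. In both libraries the 2 copies of Myrf carried loxP sites. The control library was Myrf fl/fl. In the mutant library, Rx>cre Myrf fl/fl, Cre was under Rx regulatory sequence that is active in the early eye field, the source of RPE and neural retina. Melanocytes descend from the neural crest and are outside that lineage. MYRF is a transcription factor needed for RPE development. There was 1 library per genotype, so no difference below has a replicate check, and all intervals are 95% intervals for counting error only.

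Melanin is made in the melanosome, an organelle related to lysosomes. Amyloid fibrils of PMEL form a scaffold, on which tyrosinase and its relatives TYRP1 and DCT turn tyrosine into melanin, while membrane transporters set the pH and ions of the lumen. Mutations in several of these genes cause albinism, which affects both the RPE and melanocytes, although the former is a neuroepithelium that makes its pigment in a short window of eye development and the latter is a migratory cell that can transfer its granules. MITF drives pigment genes in both cell types through sites with a CATGTG or CACGTG core.

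Bases upstream of the RefSeq starts show where that core lies in the members whose levels are compared below. Windows were found for 6 of the 10 members, with 7 starts because Trpm1 has 2, and each window holds the 250 bases before the start (GRCm38.p6). They lie at chr7:87493513-87493762 (minus strand) for Tyr, chr4:80833963-80834212 (plus) for Tyrp1, chr14:118052247-118052496 (minus) for Dct, chr7:56239509-56239758 (plus) for Oca2, and chr7:64153585-64153834 and chr7:64185209-64185458 (plus) for Trpm1. The sequences are given 5′ to 3′ on the strand of the gene, and capitals mark CATGTG, its reverse complement CACATG, or CACGTG, which reads the same on both strands.
Tyr: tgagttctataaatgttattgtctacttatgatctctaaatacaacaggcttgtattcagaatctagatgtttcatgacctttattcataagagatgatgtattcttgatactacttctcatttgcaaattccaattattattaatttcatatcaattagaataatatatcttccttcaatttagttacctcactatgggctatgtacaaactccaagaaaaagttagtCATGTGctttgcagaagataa
Tyrp1: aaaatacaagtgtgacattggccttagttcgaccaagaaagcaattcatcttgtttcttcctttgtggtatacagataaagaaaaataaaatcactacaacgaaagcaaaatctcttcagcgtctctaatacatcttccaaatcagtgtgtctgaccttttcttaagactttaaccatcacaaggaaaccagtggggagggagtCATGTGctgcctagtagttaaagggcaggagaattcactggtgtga
Dct: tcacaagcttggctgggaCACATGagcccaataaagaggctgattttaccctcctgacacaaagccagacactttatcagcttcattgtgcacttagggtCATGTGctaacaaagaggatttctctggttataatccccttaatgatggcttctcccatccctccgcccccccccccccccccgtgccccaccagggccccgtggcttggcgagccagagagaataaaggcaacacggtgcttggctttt
Oca2: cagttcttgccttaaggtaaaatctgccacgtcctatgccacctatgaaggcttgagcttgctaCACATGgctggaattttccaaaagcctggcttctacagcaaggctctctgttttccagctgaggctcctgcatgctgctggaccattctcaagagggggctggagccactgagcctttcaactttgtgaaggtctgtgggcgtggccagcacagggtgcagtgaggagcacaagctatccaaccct
Trpm1, upstream start: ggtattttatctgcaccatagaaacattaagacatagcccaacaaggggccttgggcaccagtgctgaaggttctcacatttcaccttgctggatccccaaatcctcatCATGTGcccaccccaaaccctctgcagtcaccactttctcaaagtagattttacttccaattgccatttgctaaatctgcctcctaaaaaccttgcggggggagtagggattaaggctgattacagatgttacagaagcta
Trpm1, downstream start: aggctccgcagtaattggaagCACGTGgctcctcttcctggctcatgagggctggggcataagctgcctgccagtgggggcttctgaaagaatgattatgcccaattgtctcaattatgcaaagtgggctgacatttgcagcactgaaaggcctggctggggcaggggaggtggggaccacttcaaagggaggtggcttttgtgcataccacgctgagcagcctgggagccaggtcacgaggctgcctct
Every one of these 6 windows held a core, as did that of Slc24a5. CATGTG on either strand was found in 12.3% of all 32851 windows of this length and CACGTG in 6.02%. The longer string AGTCATGTG, which contains CATGTG, was found in 0.228% of all windows, and among the members it lay 24 to 16 bases before the start of Tyr and 49 to 41 bases before that of Tyrp1. Dct carried CATGTG on both strands, 150 to 145 and 232 to 227 bases upstream. TAATCC, the core read by OTX2, a factor of the RPE and not of melanocytes, was found on either strand in 6.25% of windows and in those of Dct and the upstream start of Trpm1. A match describes the letters and is not evidence of binding.

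The cells were first identified without use of the members. Members and naming markers were left out of the clustering, and one cluster carried RPE markers and another melanocyte markers. RPE were the cells of the RPE-like cluster with no UMI (unique molecular identifier, 1 captured transcript) of Pax3, Kit or Ednrb, and numbered 260 in the control and 130 in the mutant. Melanocytes were the cells of the melanocyte-like cluster with a UMI of 2 or more of Pax3, Kit, Ednrb and Sox10, and numbered 50 and 28. The libraries kept 11518 and 12576 cells in all, and 69 barcodes occurred in both.

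The RPE-like cluster was named by the 9 RPE markers read here, so their levels describe the choice of cells and support nothing. Rlbp1, a retinoid-binding protein of the RPE, had 335 UMIs per 1000000 UMIs of the class (CPM) in control RPE and 199.8 CPM in mutant RPE, against 1.47 and 0 CPM in melanocytes. Slc16a8, an RPE lactate transporter, had 156 and 57.1 CPM in RPE and 0 UMIs in melanocytes. Of the markers of mature RPE, Rpe65 had 0 UMIs in both cell types and Best1 had 2 and 1 UMIs in RPE. Trf, transferrin, which is in the same list of 9, was instead higher in melanocytes, at 55.3 and 19.9 CPM in RPE and 91.2 and 59.3 CPM in melanocytes. All 9 together summed to 3028 and 5755 CPM in RPE and to 210.4 and 152 CPM in melanocytes. Most of this was Ttr, a carrier of thyroid hormone and retinol, at 2262 and 5319 CPM in RPE, while the other 8 summed to a lower level in mutant RPE, 766 and 436 CPM, and to 97.1 and 66.5 CPM in melanocytes. Myrf had 136 UMIs in control RPE (66.6 CPM) and 23 in mutant RPE (28.5 CPM), and 0 and 1 UMIs in melanocytes.

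Other RNA in these cells was measured alongside. Erythroid markers summed to 3820 and 2050 CPM in control and mutant RPE and to 134 and 73.6 CPM in melanocytes. Those of periocular mesenchyme summed to 69.5 and 369 CPM in RPE and to 209 and 66.5 CPM in melanocytes. Markers of neurogenic progenitors summed to 100 CPM in control and 840 CPM in mutant melanocytes, where 1 cell alone held 95 UMIs of Atoh7 and 6 of 28 cells held a UMI of Otx2 or Pax6, against 2 of 50 in the control. RPE cells were shallower, with medians of 3461 control and 2322 mutant UMIs (lowest 502 and 508), than melanocytes, with 12610 and 13601. Before the gate the RPE-like cluster had a median of 6940 UMIs over both libraries, so the gate left out deeper cells. Xist cells, with Xist and no UMI of a Y-linked gene, were 49 of 50 control but 11 of 28 mutant melanocytes, and 107 of 260 control but 19 of 130 mutant RPE cells, where shallow cells can lack both. The pools thus differed in sex. Some values below are also given for cells of matched depth, without the mixed cells or within Xist cells.

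The marker genes of the gate were not enough to find melanocytes by themselves. Over all kept cells, 241 in the control and 248 in the mutant carried 2 or more of Pax3, Kit, Ednrb and Sox10, and only 50 and 28 of these lay in the melanocyte-like cluster. Another 75 and 100 were retinal progenitor-like, and 37 and 38 were Schwann cell precursor-like. Schwann cell precursors, the neural crest relatives of melanocytes, carried Dct at 4.98 and 8.92 CPM. An alternative without clusters took as melanocytes those cells that also lacked a set of Schwann cell markers (163 and 187), and as RPE the cells with 2 or more of the RPE markers and no Pax3, Kit or Ednrb (171 and 87). The summed ratio of melanocytes to RPE was then 0.271 and 0.314, below 1, in place of the values above 1 given below. In the RPE-like cluster, Kit was the gene that most often removed a cell, detected in 76 of 349 cells of the control and 45 of 184 of the mutant, whereas Pax3 was found in 0 and 1. The 89 and 54 cells left out for Pax3, Kit or Ednrb held the members at 15369 and 15652 CPM and Dct at 2308 and 2221 CPM, which are the levels of RPE and not of melanocytes.

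The members took a large share of the RNA of both cell types, and their sum was higher in melanocytes. Their summed level was 16401 CPM in control RPE (16226 to 16578) and 22246 CPM in control melanocytes (21893 to 22604), a ratio of 1.36 (1.33 to 1.38). In the mutant it was 14980 CPM (14714 to 15250) and 25680 CPM (25199 to 26169), a ratio of 1.71 (1.67 to 1.76). The direction in the control rested on Dct. Without Dct, left out after its values were seen, the other 9 members summed to 14048 and 12494 CPM in RPE and to 12601 and 14038 CPM in melanocytes, a ratio of 0.897 (0.875 to 0.919) in the control and 1.12 (1.09 to 1.16) in the mutant. By cell, the sum of all 10 ran from 1482 through a median of 13959 to 43484 CPM in control RPE and from 10511 through 22187 to 37729 CPM in control melanocytes. In the mutant it ran from 0 through 9152 to 41209 CPM and from 9859 through 27916 to 45530 CPM. The ranges of the 2 cell types overlapped in both libraries, with RPE reaching much lower. With members, haemoglobin, ribosomal and mitochondrial genes left out of the denominator, the ratios were 1.35 and 1.71. With a mitochondrial limit of 5%, which kept 73 mutant RPE cells, the mutant ratio was 3.03, and those of Dct, Pmel and Tyrp1 were 12.7, 2.53 and 3.05. Median mitochondrial shares of control and mutant RPE were 4.63% and 3.17% under 2000 UMIs and 6.35% and 6.26% over 10000. The limit thus took out a larger part of the deep RPE cells.

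The difference between the cell types lay in which genes made up the sum. Dct, Slc45a2 and Gpr143 were at least 2-fold higher in melanocytes in both libraries, 3 of 10 members where 8.16% of the 6860 genes with enough UMIs passed in that direction. Trpm1 and Oca2 were at least 2-fold lower, 2 of 10 where 9.23% of genes passed. Tyr, Tyrp1, Pmel, Mlana and Slc24a5 did not pass in both libraries. The counting interval lay above 1 in both libraries for 5 members (background 13.1%) and below 1 in both for 3 (background 13.3%). The interval narrows as UMIs rise, and the background covers genes with as few as 20 UMIs in a library. These shares are therefore not like for like. The median log2 ratio of the members was -0.05 in the control and 0.49 in the mutant, beside 0.04 and 0.06 over all genes. The 3 members higher in melanocytes were found in each of the 12 alternative treatments that kept the clusters. With cells chosen by markers and no clusters, 0 members were at least 2-fold higher in melanocytes in both libraries.

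**Figure D1:**
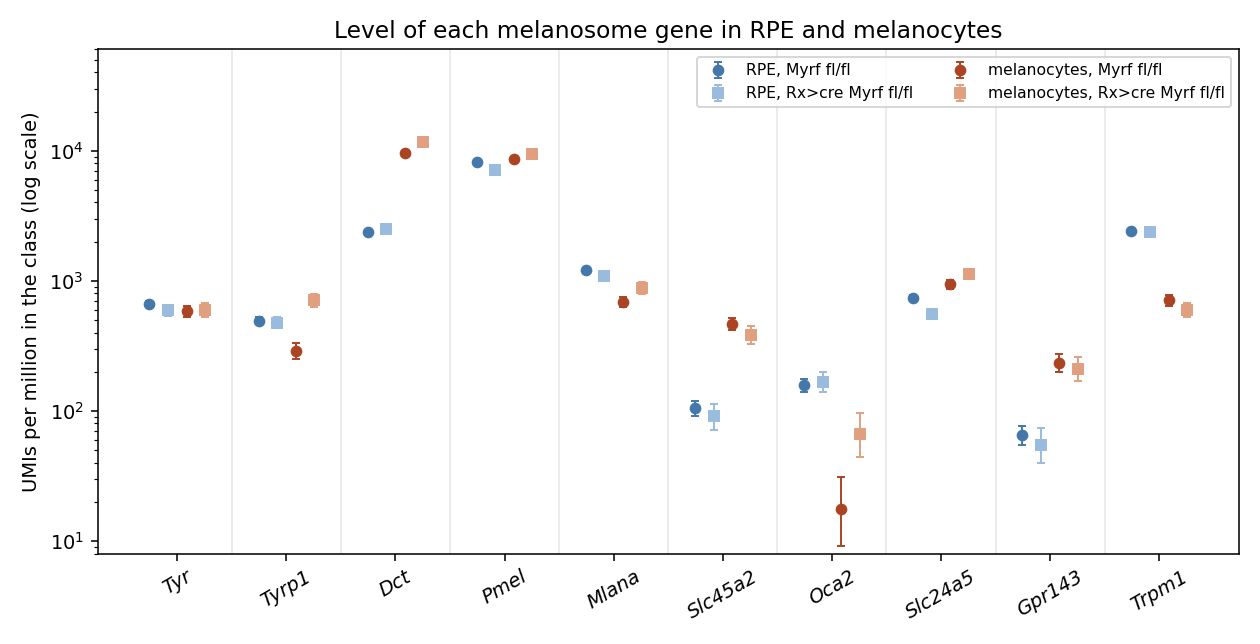
Level of each of the 10 genes in RPE (blue) and melanocytes (brown) of the Myrf fl/fl (circles) and Rx>cre Myrf fl/fl (squares) libraries, in CPM on a log axis, with 95% Poisson intervals for counting error. Dct, Slc45a2 and Gpr143 sit higher in melanocytes, Trpm1 and Oca2 sit higher in RPE, and Pmel lies between 7104 and 9468 in all 4 groups.

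**Figure D2:**
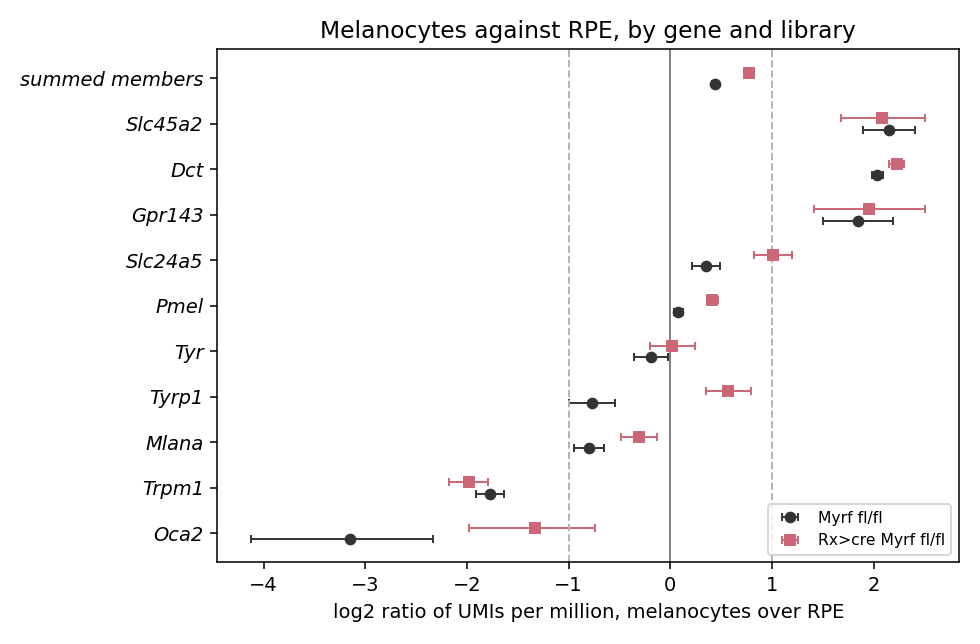
Log2 ratio of CPM in melanocytes over RPE for each gene and for their sum, in the Myrf fl/fl (circles) and Rx>cre Myrf fl/fl (squares) libraries, with exact 95% counting intervals. Dashed lines mark 2-fold. Tyrp1 lies left of 0 in the control (-0.77) and right of 0 in the mutant (0.57).

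The 3 enzymes of the tyrosinase family differed in how they divided between the cell types. Dct, dopachrome tautomerase (ENSMUSG00000022129, chromosome 14, 118012790 to 118052244, minus strand, GRCm38), had 4805 UMIs in control RPE and 6556 in control melanocytes, or 2353 CPM (2287 to 2420) and 9645 CPM (9413 to 9882). In the mutant it had 2004 and 4905 UMIs, or 2487 CPM (2379 to 2598) and 11643 CPM (11319 to 11973). Dct was thus 4.10-fold (3.95 to 4.26) and 4.68-fold (4.44 to 4.93) higher in melanocytes. Every melanocyte carried it, from 4529 to 24390 CPM with a median of 9457 in the control and from 5591 to 19367 with a median of 13338 in the mutant. RPE cells ran from 0 to 9873 CPM with a median of 1643 in the control and from 0 to 10989 with a median of 1177 in the mutant. Melanocytes were therefore high throughout, and the upper RPE cells reached into their range. Among cells over 10000 UMIs, Dct had 2486 and 2736 CPM in RPE and 9366 and 11128 CPM in melanocytes. Among those of 2000 to 10000 UMIs it had 1915 and 2084 CPM in RPE and 11111 and 14934 CPM in 13 and 7 melanocytes. The difference was thus present at matched depth, and larger in the shallower of these bins. By UMIs, Dct stood at place 63 of all genes in control RPE and 61 in mutant RPE, and at places 3 and 2 in melanocytes.

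Tyr, tyrosinase, the rate-limiting enzyme of melanin synthesis (ENSMUSG00000004651, chromosome 7, 87424771 to 87493512, minus strand), was close in the 2 cell types. It had 1356 UMIs in control RPE, 664 CPM (629 to 700.2), and 396 UMIs in control melanocytes, 583 CPM (527 to 643), a ratio of 0.878 (0.783 to 0.982). The mutant gave 592 CPM (540 to 647) and 601 CPM (529 to 679), a ratio of 1.01 (0.868 to 1.18). The control ratio changed side to 1.45 with a mitochondrial limit of 5% and to 1.19 as a mean of per-cell levels, so no direction is given for Tyr. All 50 control and 28 mutant melanocytes carried a Tyr UMI, and 87 of 260 control and 59 of 130 mutant RPE cells had none. Cells were then thinned to 2000 UMIs, which left out shallower cells and kept 156 of 260 control and 68 of 130 mutant RPE cells and all melanocytes, so that the thinned shares of RPE here and below cover the deeper cells. Of these, 67.9% of control RPE (60.0% to 75.2%) and 66.0% of control melanocytes (51.2% to 78.8%) held a Tyr UMI, and the gap between the cell types in the control was gone. The mutant shares were 52.9% (40.4% to 65.2%) and 71.4% (51.3% to 86.8%), with overlapping intervals.

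Tyrp1, which acts beside tyrosinase (ENSMUSG00000005994, chromosome 4, 80834123 to 80851719, plus strand), was the member whose ratio lay on opposite sides of 1 in the libraries with both counting intervals off 1. Control and mutant RPE were close, at 494 CPM (464 to 525) and 476 CPM (430 to 527). Control melanocytes had 290 CPM (251 to 333) and mutant melanocytes 707 CPM (629 to 792). The ratio of melanocytes to RPE was 0.587 (0.501 to 0.684) in the control and 1.48 (1.27 to 1.73) in the mutant. Tyrp1 was absent from 14 of 50 control and 3 of 28 mutant melanocytes, whose medians were 164 and 429 CPM and highest values 1167 and 2299 CPM. The 2 sets of melanocytes overlapped. The 5 richest cells held 37.1% and 44.0% of the Tyrp1 UMIs.

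Of the fibril protein and its partner, Pmel was slightly higher and Mlana lower in melanocytes. Pmel, the fibril protein itself (ENSMUSG00000025359, chromosome 10, 128704195 to 128720238, plus strand), had 16762 UMIs in control RPE, 8207 CPM (8083 to 8332), and 5896 in control melanocytes, 8674 CPM (8454 to 8899). The mutant gave 7104 CPM (6921 to 7290) and 9468 CPM (9177 to 9767). The ratios were 1.06 (1.03 to 1.09) and 1.33 (1.28 to 1.39), and the control ratio was 0.982 when doublets were kept and the mutant ratio 2.53 with a mitochondrial limit of 5%. By UMIs Pmel stood at places 9 and 8 of all genes in RPE and at place 5 in both sets of melanocytes. The gene shares 837 bases with Cdk2 and 105 with Dgka on the opposite strand.

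Mlana, a small melanosome membrane protein that binds PMEL (ENSMUSG00000024806, chromosome 19, 29697824 to 29708634, plus strand), was lower in melanocytes. It had 1203 CPM (1155 to 1251) in control RPE and 691 CPM (630 to 757) in control melanocytes, a ratio of 0.575 (0.520 to 0.635). The mutant had 1088 CPM (1017 to 1163) and 878 CPM (791 to 972), a ratio of 0.807 (0.713 to 0.912). The mutant ratio turned to 1.34 with a mitochondrial limit of 5% and was 0.373 within Xist cells, of which the mutant had 19 in RPE and 11 among melanocytes. The 5 richest of 28 mutant melanocytes held 49.2% of its UMIs, against 23.0% in the 50 control melanocytes.

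Of the 3 transporters, Slc45a2 was higher and Oca2 lower in melanocytes by at least 2-fold in both libraries, and Slc24a5 was higher by less in the control and by about that much in the mutant. Slc45a2, a melanosome membrane transporter that affects its pH (ENSMUSG00000022243, chromosome 15, 11000721 to 11029233, plus strand), had 214 UMIs in control RPE, 105 CPM (91.2 to 119.8), and 316 in control melanocytes, 465 CPM (415 to 519). The mutant gave 73 and 162 UMIs, 90.6 CPM (71.0 to 114) and 385 CPM (328 to 449). The ratios were 4.44 (3.72 to 5.30) and 4.25 (3.20 to 5.68). Over the 12 alternatives that kept the clusters they ran from 3.95 to 9.81 and from 3.84 to 8.24, both highest with a mitochondrial limit of 5%. In thinned cells the share with a UMI was 16.7% in control RPE (11.2% to 23.5%) and 66.0% in control melanocytes (51.2% to 78.8%), and 16.2% (8.36% to 27.1%) and 42.9% (24.5% to 62.8%) in the mutant. The share in thinned erythroid-like cells, which should lack the gene, was 0 of 384 and 0 of 386.

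Oca2, the chloride channel of the melanosome (ENSMUSG00000030450, chromosome 7, 56239760 to 56536518, plus strand), went the other way. RPE held 321 UMIs in the control, 157 CPM (140 to 175), and 135 in the mutant, 168 CPM (140 to 198). Melanocytes held 12 UMIs, 17.7 CPM (9.12 to 30.8), and 28 UMIs, 66.5 CPM (44.2 to 96.1). The ratio of melanocytes to RPE was 0.112 (0.0574 to 0.199) in the control and 0.397 (0.254 to 0.600) in the mutant, or 8.90-fold and 2.52-fold higher in RPE. Only 6 of 50 control melanocytes carried Oca2, and the 5 richest held 91.7% of its UMIs there. With a mitochondrial limit of 5% the mutant ratio was 0.858, so the 2-fold call for Oca2 in the mutant was lost under that setting. Without the 5 richest cells of each group the ratio was 0.0115 (0.00029 to 0.0646) in the control, with 1 melanocyte UMI left, and 0.194 (0.0812 to 0.397) in the mutant. In the members' windows above, Oca2 holds a single CACATG, 186 to 181 bases before the start.

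Slc24a5, a sodium, potassium and calcium exchanger of the melanosome (ENSMUSG00000035183, chromosome 2, 125068124 to 125088677, plus strand), was higher in melanocytes by less than 2-fold in the control. It had 737 CPM (700.1 to 775) in control RPE and 940.1 CPM (869 to 1016) in control melanocytes, a ratio of 1.28 (1.16 to 1.40). The mutant had 557 CPM (507 to 611) and 1123 CPM (1024 to 1229), a ratio of 2.02 (1.77 to 2.30), whose interval included 2. It was 1.69 without the marker gate and 1.98 without cells under 2000 UMIs, and 10 of the 12 alternatives that kept the clusters were past 2-fold. The difference between the libraries was not tested. All 50 and 28 melanocytes carried it, from 78.3 to 3112 CPM in the control and from 433 to 3074 CPM in the mutant.

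The receptor and the channel had opposite directions. Gpr143, a receptor of the melanosome membrane that is mutated in ocular albinism (ENSMUSG00000025333, chromosome X, 152781921 to 152808646, plus strand), had 133 UMIs in control RPE, 65.1 CPM (54.5 to 77.2), and 159 in control melanocytes, 234 CPM (199 to 273). The mutant gave 44 and 89 UMIs, 54.6 CPM (39.7 to 73.3) and 211 CPM (169.7 to 259.97). The ratios were 3.59 (2.84 to 4.56) and 3.87 (2.67 to 5.69). Over the 12 alternatives that kept the clusters they ran from 3.20 to 4.84 and from 3.43 to 6.04, both highest with a mitochondrial limit of 5%. The gene is X-linked, and among Xist cells as defined above the ratios were 3.46 and 3.57, so the difference was of similar size within that sex.

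Trpm1, a cation channel (ENSMUSG00000030523, chromosome 7, 64153835 to 64269775, plus strand) whose intron holds the microRNA gene Mir211, was higher in RPE and rested on far more UMIs than Oca2. It had 4936 UMIs in control RPE, 2417 CPM (2350 to 2485), and 480 in control melanocytes, 706 CPM (644 to 772). The mutant gave 1905 and 252 UMIs, 2364 CPM (2259 to 2472) and 598 CPM (527 to 677). The ratios of melanocytes to RPE were 0.292 (0.266 to 0.321) and 0.253 (0.221 to 0.289), or 3.42-fold and 3.95-fold higher in RPE. The median RPE cell of control and mutant held 1718 and 1717 CPM, against 651 and 608 CPM for the median melanocyte, and the ranges overlapped. In thinned cells 93.6% of control RPE (88.5% to 96.9%) and 60.0% of control melanocytes (45.2% to 73.6%) held a UMI. Over the 12 alternatives that kept the clusters, the ratio ran from 0.266 to 0.367 in the control and from 0.243 to 0.316 in the mutant. The difference was therefore present in cells of matched depth and in all sets of cells tried there.

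The composition of the pigment programme was read as the share of each member in the summed UMIs of all 10, which does not depend on the other RNA of a cell. Dct made up 14.3% (14.0% to 14.7%) of the sum in control RPE and 43.4% (42.6% to 44.2%) in control melanocytes, and 16.6% and 45.3% in the mutant. Trpm1 made up 14.7% and 15.8% in RPE of control and mutant and 3.17% and 2.33% in melanocytes. Pmel was the largest part of RPE, at 50.04% and 47.4%, and was 39.0% and 36.9% in melanocytes. For these 3 genes the shares differed less between the genotypes than between the cell types. Within RPE the summed level was higher in deeper cells, while the Dct share of it changed less. The sum was 12741 CPM in control RPE under 2000 UMIs, 14496 between 2000 and 10000 and 17040 above, and 9494, 14417 and 15788 in the mutant. The Dct share was 13.4%, 13.2% and 14.6% over the same bins of the control and 13.9%, 14.5% and 17.3% in the mutant.

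The balance of Dct and Pmel, the 2 members with the most UMIs in melanocytes, was also measured cell by cell among cells with at least 10 UMIs of both together. The Dct share of the pair ran from 0% through a median of 21.8% to 67.3% in 180 control RPE cells and from 28.2% through 55.9% to 75.6% in 50 control melanocytes. In the mutant it ran from 0% through 23.3% to 61.6% in 66 RPE cells and from 40.3% through 56.2% to 80.3% in 28 melanocytes. No melanocyte (0 of 50 and 0 of 28) lay below the median RPE cell, and 4 of 180 and 2 of 66 RPE cells lay above the median melanocyte. The lowest melanocyte lay above 71.1% of control and 81.8% of mutant RPE cells.

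**Figure D3:**
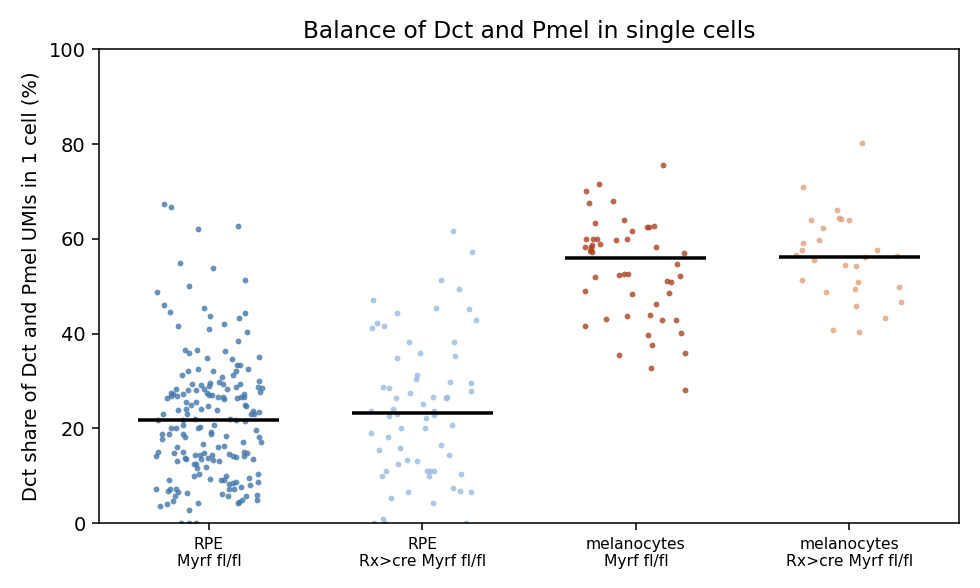
Dct share of the Dct and Pmel UMIs of each cell with at least 10 of them, in percent, for RPE (blue) and melanocytes (brown) of both libraries. Each point is 1 cell and the line is the median, which is 21.8% and 23.3% in RPE and 55.9% and 56.2% in melanocytes. The clouds overlap between 28.2% and 67.3% in the control.

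Outside the pigment cells, 9 of the 10 members were low. In 13 other named classes of both libraries, the highest level was 23.5 CPM for Pmel, 15.9 CPM for Dct and 13.2 CPM for Trpm1, and at most 5.63 CPM for the other 6. Slc24a5 was the exception. Its median over these 26 class and library pairs was 119.9 CPM, with 272 CPM in neurogenic progenitor-like cells of the control and 2.64 CPM in erythroid-like cells of the mutant. In cells thinned to 2000 UMIs, Slc24a5 was found in 31.7% of control and 33.0% of mutant retinal ganglion cell-like cells and in 1.04% and 0.518% of erythroid-like cells. The shares of these classes were far apart at equal depth, as they were not for Dct, at 0.952% and 0.962% in ganglion cell-like and 0% and 0.259% in erythroid-like cells.

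Slc24a5 overlaps by 4050 bases with Myef2, a gene of an RNA-binding protein on the opposite strand (chromosome 2, 125084628 to 125123661), where the 3′ ends of both genes lie. Over the 26 pairs outside the pigment cells, Slc24a5 followed Myef2 with a Pearson r of 0.993 on log2(CPM + 1), a description over points that share libraries and depth. In control retinal ganglion cell-like cells Slc24a5 had 241 and Myef2 252 CPM, and in control periocular mesenchyme-like cells they had 97.1 and 103 CPM. RPE had Slc24a5 at 737 and 557 CPM beside Myef2 at 116 and 95.5 CPM, and melanocytes had 940.1 and 1123 CPM beside 94.2 and 121 CPM. The pigment cells were thus the only classes far above the line of equal values. Whether the counting used strand is not given in the sources used here, so reads of the shared bases cannot be assigned to 1 of the genes with certainty, and the Slc24a5 levels above may hold an unknown amount of them.

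**Figure D4:**
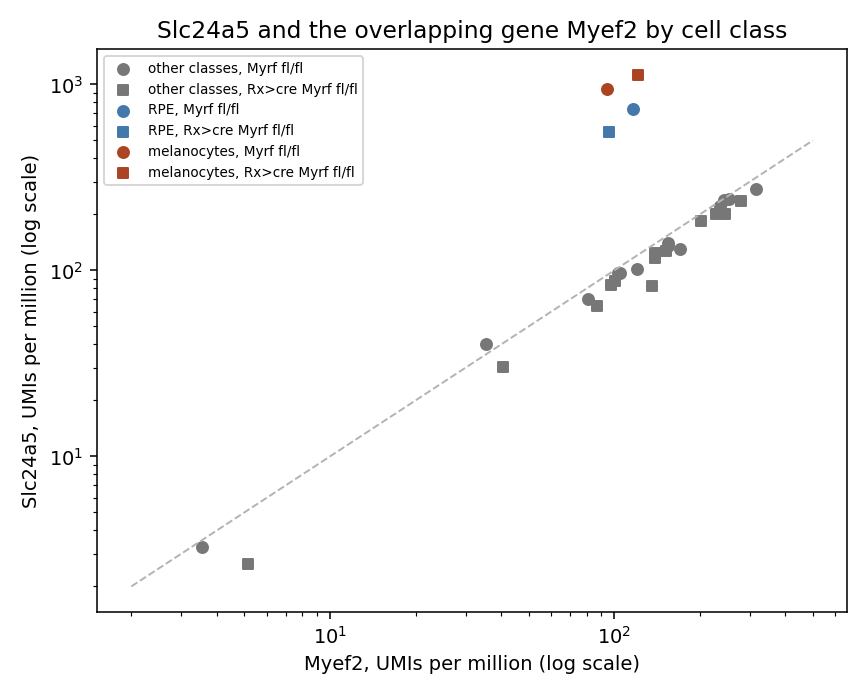
Slc24a5 against Myef2 in CPM, both axes on a log scale, for 13 other classes (grey), RPE (blue) and melanocytes (brown) of the Myrf fl/fl (circles) and Rx>cre Myrf fl/fl (squares) libraries. The dashed line marks equal values. The grey points lie along it, and the 4 pigment cell points lie above it at 557 to 1123 for Slc24a5.

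The mutant and the control were then compared within each cell type, to ask whether pigment genes differed in the lineage where Rx drives Cre and in the cells outside it. In RPE none of the 10 members differed by 1.5-fold or more, 0 up where 7.45% of 9302 genes passed and 0 down where 11.4% passed. The counting interval lay below 1 for 4 members, Slc24a5 (0.756, 0.679 to 0.841), Pmel (0.866, 0.840 to 0.892), Tyr (0.891, 0.801 to 0.990) and Mlana (0.905, 0.837 to 0.978), and above 1 for 1, Dct (1.06, 1.00 to 1.11). The background of such intervals was 5.46% below and 5.11% above. Intervals narrow as UMIs rise, and this background covers genes with as few as 20 UMIs, so these shares are not like for like. Without the marker gate, RPE gave 0.946 for Slc24a5, 0.985 for Pmel, 1.03 for Tyr, 0.944 for Mlana and 1.00 for Dct, each nearer 1. The sum was 0.913 of the control (0.894 to 0.933), 0.932 within Xist cells and 0.964 without the marker gate. With a mitochondrial limit of 5%, which kept 114 control and 73 mutant cells, the sum was 0.629 and 3 of 10 members were at least 1.5-fold lower, Dct (0.562), Pmel (0.509) and Slc24a5 (0.650), where 14.4% of 5362 genes passed. Among the 104 control and 62 mutant cells of 2000 UMIs or fewer, those left by the doublet limit in the study's methods, Tyrp1 was 0.476 and Oca2 0.439, 2 of the 8 members with enough UMIs, where 14.2% of 1397 genes passed. With cells chosen by markers and no clusters, 9 of the 10 members were at least 1.5-fold lower, where 10.4% of 10175 genes passed. The absence of 1.5-fold differences in RPE therefore did not hold under these settings. The median mitochondrial share of RPE was 5.40% and 4.48%, and 6.35% and 6.26% among RPE cells over 10000 UMIs. Markers of periocular mesenchyme summed to 69.5 CPM in control and 369 CPM in mutant RPE. The part of mitochondrial share, depth and these markers in the result was not tested.

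In melanocytes, Tyrp1 and Oca2 were at least 1.5-fold higher in the mutant, 2 of 10 where 9.57% of 6479 genes passed, and 0 members were as much lower, where 13.1% passed. Tyrp1 was 2.44-fold higher (2.03 to 2.94) and Oca2 3.76-fold (1.85 to 8.13). Without the 6 mutant and 2 control melanocytes that held Otx2 or Pax6, Tyrp1 was 2.66-fold and Oca2 2.86-fold higher, and within Xist cells, 49 against 11, they were 2.25-fold and 3.02-fold higher. The Tyrp1 difference was not seen in the 13 and 7 melanocytes of 2000 to 10000 UMIs, at 322 and 333 CPM, and with cells chosen by markers and no clusters both calls were lost (0.975 and 0.866). Without the 5 cells richest in Oca2 in each group it was 15.7 (2.1 to 695), with 8 UMIs left in the mutant and 1 in the control, so its size rests on very few cells. The intervals of 6 members lay above 1 and that of 1, Trpm1 (0.847, 0.724 to 0.989), below, where the background was 5.32% and 5.40%. The limit given for RPE holds here too, as this background covers genes with as few as 20 UMIs. The sum was 1.15 of the control (1.13 to 1.18). Within Xist cells Mlana (0.701) and Pmel (0.987) were lower and Trpm1 (1.06) was higher in the mutant, so for these 3 genes the direction depended on which cells were compared.

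Other genes of the pigment cell were read from 6 lists, with 43 of their genes holding enough UMIs to be compared. Among genes of melanosome transport, 4 of 7 were at least 2-fold higher in melanocytes in both libraries and 0 were lower, beside 8.16% and 9.23% of all genes compared. Mlph, the linker of melanosomes to actin motors, had 13.2 and 12.4 CPM in RPE and 282 and 240 CPM in melanocytes (21.4-fold and 19.3-fold). Its partner motor Myo5a was 9.82-fold and 7.65-fold higher, and Sytl2 4.19-fold and 7.33-fold. Myo7a, the motor that moves melanosomes in mature RPE, was 15.02-fold and 16.3-fold higher in melanocytes at this age, from 12 and 4 UMIs in RPE and 60 and 34 in melanocytes. Rab27a, the GTPase that recruits both motors through linkers, had 110 and 129 CPM in RPE and 115 and 76.0 CPM in melanocytes, near in the control and 1.70-fold higher in RPE in the mutant. Myrip, which links RAB27A to MYO7A, had 45 and 19 UMIs in RPE and 0 in melanocytes of either library, too few in the mutant to be among the 7 compared. Set against 3 counts over all melanocytes of a library, Myrip was at least 4.99-fold and 3.31-fold higher in RPE.

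Of 16 genes of organelle biogenesis, 3 were higher, 1 was lower and 12 were neither, beside the same 8.16% and 9.23%. Lyst, which limits the size of lysosome-related organelles, was 26.3-fold and 19.6-fold higher in melanocytes. Hps3 was 12.0-fold and 21.5-fold and Ap3b1 2.86-fold and 2.97-fold higher. Rabggta was 2.05-fold and 2.09-fold higher in RPE. Among 5 other channels and transporters, 1 was higher and 1 lower. Mcoln3, a lysosomal cation channel, had 4 and 1 UMIs in RPE and 137 and 87 in melanocytes. The lower gene was Slc7a11, the cystine transporter needed for yellow pigment, with 271 and 102 UMIs in RPE and 0 in melanocytes, at least 30.1-fold and 17.8-fold higher in RPE. Atp7a, a copper transporter that supplies tyrosinase, was 2.82-fold and 1.24-fold higher in melanocytes, and Clcn7 had 61 UMIs in all and was not compared.

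Of 6 partners of the fibril, 0 passed 2-fold in either direction, beside the same 8.16% and 9.23%. Cd63 was 1.84-fold and 1.91-fold higher in melanocytes, and Apoe and Tspan10 were 1.61-fold and 1.68-fold higher in RPE in the control and 1.59-fold and 1.29-fold in the mutant. Among 7 transcription factors, 2 were higher and 3 lower. Mitf was 3.53-fold and 3.34-fold higher in melanocytes, at 777 and 589 CPM against 220.3 and 176 CPM. Zeb2 was 5.62-fold and 4.86-fold higher. Pax6 was 90.02-fold (24.8 to 745) and 8.43-fold (5.09 to 14.97) higher in RPE. Control melanocytes held 2 UMIs of it and mutant ones 16, of which 11 came from 1 cell. Otx2 was at least 90.3-fold higher in control RPE and 4.31-fold in the mutant, where 24 of its 32 melanocyte UMIs came from 1 cell. Lef1 was also lower in melanocytes, with 33 and 21 UMIs in RPE and 0 and 2 in melanocytes. Sox9 was 4.07-fold and 1.33-fold higher in RPE. Of 2 receptors compared, Met was 11.6-fold and 12.2-fold higher in melanocytes and Igf1r was near 1, at 1.03 and 1.08. Mc1r, the receptor for melanocortin, had 1 and 0 UMIs in RPE and 16 and 8 in melanocytes, too few to be compared. It was also a marker that named the melanocyte-like cluster, so its counts describe the choice of cells.

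**Figure D5:**
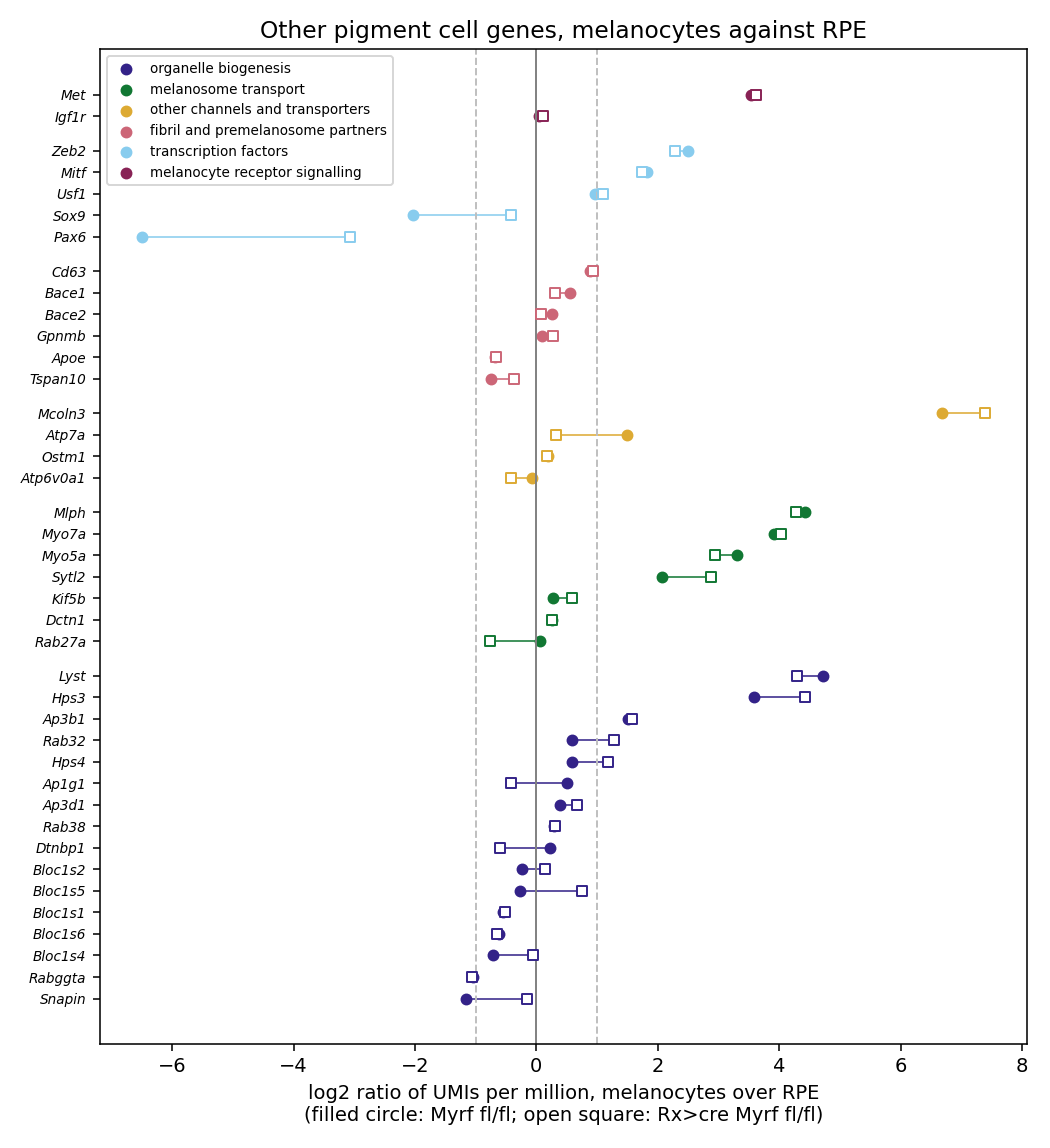
Log2 ratio of CPM in melanocytes over RPE for 40 of the 43 compared genes of 6 lists, with the Myrf fl/fl library as filled circles and the Rx>cre Myrf fl/fl library as open squares. Dashed lines mark 2-fold, and Slc7a11, Otx2 and Lef1 are not drawn because a group had 0 UMIs. Mcoln3, Lyst, Mlph, Hps3 and Myo7a lie far to the right and Pax6 far to the left in both libraries.

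Genes whose pattern over 15 classes of each library was most like that of the summed members were ranked by the Pearson correlation of log2(CPM + 1) over 30 profiles, given as a description of points that share libraries and depth. The closest, other than members and gate markers, were Gm45847 (0.931), Tspan10 (0.925), Ptgds (0.919), Gpnmb (0.916), Trim63 (0.912), Xrra1 (0.885), Ttr (0.875), Ccdc148 (0.861), Fabp3 (0.859) and C2 (0.856). Tspan10 was lower in melanocytes, at 294 and 251 CPM in RPE and 175 and 195 CPM in melanocytes. Gpnmb was at similar levels in the pigment cells, 576 and 570 CPM in RPE and 613 and 686 CPM in melanocytes and at most 2.95 CPM elsewhere. Ptgds, a prostaglandin D synthase, had 1648 and 1392 CPM in RPE and 6743 and 9708 CPM in melanocytes, and so divided like Dct. Ttr divided the other way, at 2262 and 5319 CPM in RPE and 113 and 85.5 CPM in melanocytes. It was a marker that named the RPE-like cluster, so this division describes the choice of cells. Xrra1 had 10.8 and 11.2 CPM in RPE and 146 and 140 CPM in melanocytes.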

How the data were processed

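Single-cell RNA-seq (10x Genomics 3′, poly(A) RNA) was analysed from 1 Myrf fl/fl and 1 Rx>cre Myrf fl/fl library, grouped by the genotype in the labels. The files the authors deposited hold UMI counts of 31053 genes in each cell, not normalized, from reads aligned to mm10. The submitters' processing notes name Cell Ranger 7.1.0 and Seurat 4.1.1, while the headers of the count matrices name version 3.1.0. The libraries held 13017 and 13880 barcodes with 132436812 and 135678970 UMIs (median 9339 and 8702).

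Cells with under 200 genes or over 15% mitochondrial UMIs were removed, as were doublets called by Scrublet in scanpy 1.11.5 (424 and 442, or 3.55% and 3.40%; 9.55% and 10.4% were expected at these barcode numbers, so doublets remained). Counts were scaled to 10000 per cell, and both libraries were clustered together on 1900 variable genes (30 components, 15 neighbours, Leiden resolution 1.0), without members, naming markers, haemoglobin, mitochondrial, ribosomal, Xist or Y-linked genes. Of 34 clusters, 30 were named "-like" from marker lists and 4 stayed unnamed. The score limits for naming were set after the data were seen, and the names can differ from the study's.

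UMIs were summed per class and library and divided by the class total (CPM). Sums carry exact Poisson, shares exact Clopper-Pearson and ratios exact conditional binomial 95% intervals, for counting error only. Since cells of a library are no replicates, nothing was tested. Genes were compared between cell types where both libraries had at least 20 UMIs over RPE and melanocytes, and between genotypes where both libraries together had at least 20. Calls were 2-fold in both libraries between cell types and 1.5-fold between genotypes. A gene at 0 UMIs was set to 3 counts over the group for a bound. The ratio code was tested on simulated counts.

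The members and gene lists were chosen with earlier results of these data known. Beyond all members, the text names, from each list, the 3 genes with the largest ratio in the control among those with 50 UMIs or more and the same sign in both libraries, and the 10 genes of most similar pattern among those with 200 UMIs or more. Sytl2, Rab27a, Myrip, Rabggta, Slc7a11, Mitf, Otx2, Lef1 and Mc1r were named after their values were seen. Gene positions come from GENCODE M21 and promoter windows from RefSeq (GRCm38.p6). Alternatives covered how cells were chosen, filtered, scaled and clustered. The one without melanocytes carrying Otx2 or Pax6 was added after the data were seen. Only e15.5 was analysed here.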

Additional observations from a re-analysis of the deposited data

Results flagged for a closer look

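Tyrp1 pointed in opposite directions in the libraries, with melanocytes over RPE at 0.587 in the control and 1.48 in the mutant, on opposite sides of 1 with counting intervals that did not overlap. Among cells over 10000 UMIs it had 284 CPM in control and 766 CPM in mutant melanocytes, but among those of 2000 to 10000 UMIs it had 322 and 333 CPM, in 13 and 7 cells. Sex and the share of cells with retinal transcripts also differed between the melanocyte pools, and the ratio of mutant to control was 2.25 within Xist cells and 2.66 without the mixed cells. With 1 library per genotype the difference was not tested, and genotype, pool and sex cannot be told apart beyond these values.

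Mutant over control had opposite directions in RPE and melanocytes, with the counting intervals on opposite sides of 1 in both cell types, for 3 members and for the sum. Pmel was 0.866 and 1.09, Mlana 0.905 and 1.27, Slc24a5 0.756 and 1.19, and the summed members 0.913 and 1.15. Tyr (0.891 and 1.03) and Tyrp1 (0.964 and 2.44) also lay on opposite sides of 1, each with 1 interval that included 1. Within Xist cells Pmel was 0.839 and 0.987, on the same side, and Mlana was 1.02 and 0.701, the other way round. Without the 5 richest cells Mlana was 0.809 and 0.925. In RPE without the marker gate, Pmel was 0.985, Mlana 0.944, Slc24a5 0.946 and the sum 0.964. None of these differences between the cell types was tested.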

How the results depend on the processing

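No paired analysis was possible because there was 1 library per genotype and the labels carry no replicate numbers, and for the same reason no replicate could be left out. With cells chosen by markers over all clusters (melanocytes with 2 or more gate genes and no Schwann cell marker of a fixed set, 163 and 187 cells; RPE with 2 or more RPE markers and no Pax3, Kit or Ednrb, 171 and 87 cells), 0 members were at least 2-fold higher in them in both libraries, and the summed ratio of melanocytes to RPE turned to 0.271 in the control and 0.314 in the mutant. Mutant over control was then 0.588 in RPE and 0.681 in melanocytes. By construction this choice admits cells of other clusters. Single ratios of melanocytes to RPE that also turned there, control then mutant, were Dct 0.503 and 0.443, Pmel 0.251 and 0.308, Slc45a2 0.466 and 0.477, Gpr143 0.426 and 0.434, and Slc24a5 0.417 and 0.636. In the mutant alone, Tyrp1 (0.335) and Tyr (0.338) turned. Mutant over control in melanocytes turned for Tyr (0.862), Tyrp1 (0.975), Dct (0.578), Pmel (0.686), Mlana (0.859), Oca2 (0.866) and Slc24a5 (0.794), and in RPE for Dct (0.655) and Oca2 (0.701).

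Summed ratios of melanocytes to RPE moved beyond their counting interval, control then mutant, to 1.67 and 3.03 with a mitochondrial limit of 5%, 1.60 and 2.33 as means of per-cell levels, 1.29 and 1.51 in Xist cells, 1.40 and 1.93 without melanocytes carrying Otx2 or Pax6, 1.25 and 1.82 with doublets kept, and 1.39 and 1.79 with pigment genes among the clustering features. In the control it was 1.40 without the marker gate. In the mutant it was 1.66 without cells under 2000 UMIs and 1.82 without the 5 richest cells. Mutant over control moved in RPE to 0.629 (mitochondrial limit), 0.745 (cells over 2000 UMIs removed, which left 0 melanocytes), 0.829 (per-cell means), 0.859 (without the richest cells), 0.885 (doublets kept), 0.893 (pigment genes clustered) and 0.964 (no gate). In melanocytes it moved to 1.28 (doublets kept), 1.21 (per-cell means), 1.09 (Xist cells) and 1.26 (without Otx2 or Pax6 cells). These kept the direction.

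Other single ratios whose interval did not include 1 turned as follows. Tyr in control melanocytes over RPE was 1.45 (mitochondrial limit) and 1.19 (per-cell means), Pmel 0.982 (doublets kept), and Mlana in the mutant 1.34 (mitochondrial limit). In RPE, mutant over control was 1.03 for Tyr (no gate) and 1.02 for Mlana (Xist cells), and for Dct 0.562 (mitochondrial limit), 0.773 (cells over 2000 UMIs removed), 0.887 (per-cell means) and 0.895 (without the richest cells). In melanocytes, Mlana was 0.925 (without the richest cells) and 0.701 (Xist cells), Pmel 0.987 and Trpm1 1.06 (Xist cells). Of ratios whose interval included 1, Gpr143 in RPE (mutant over control) went to 1.68 (cells over 2000 UMIs removed) and 1.33 (per-cell means), Oca2 to 0.439, 0.880 and, with the mitochondrial limit, 0.712, Trpm1 to 1.12 (Xist cells), and Tyr in mutant melanocytes over RPE to 0.8004 (no gate) and 0.981 (cells under 2000 UMIs removed). The cause was not tested. Of the 12 alternatives that kept the clusters, all 12 kept Dct, Slc45a2, Gpr143 and Trpm1 past 2-fold in both libraries. Of the members, Oca2 had the fewest UMIs in control melanocytes, 12.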
